A study of Arabidopsis thaliana with 6 samples.

Results

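Flavonoids are phenolic pigments and protectants of plants, and the 34 genes described here encode the enzymes that make and decorate them in Arabidopsis thaliana, a glutathione transferase of anthocyanin transport, and the regulators of those genes. The 34 were taken from the count table by their locus codes, all 34 of them are among its 32313 genes, and the rule that chose them uses codes and no measured value. They comprise 21 genes of enzymes or transport and 13 regulators. Enzymes were sorted into early steps (5 genes), flavonol steps (4 genes) and late steps (9 genes), with 3 genes apart: 4CL3 at the entry to the pathway, UGT78D2, whose enzyme glucosylates both flavonols and anthocyanins, and BAN, which leads to the tannins of the seed coat.

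Both groups were seedlings of the Columbia ecotype, transferred 15 days after germination to medium with 10 µg/ml rapamycin for 3 days, and each gave 3 RNA-seq libraries. The first group is labelled wild type (WT), and the other, BP12-2, is labelled a knockdown line for the TOR kinase. BP12 lines produce yeast FKBP12, through which rapamycin can bind and inhibit TOR, a kinase that couples growth to nutrients and energy. Only 1 such line was sequenced, its transgene's promoter is not stated in the labels, and seedlings on solvent medium were not analysed here, so a genotype difference that exists without the drug cannot be told apart from one that needs it. The labels leave unsaid whether replicates were grown apart. A p-value therefore reflects the spread among these libraries alone, and that spread may be technical.

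The flavonoid pathway starts from a phenylpropanoid thioester and malonyl units. Early enzymes make dihydroflavonols, which flavonol synthase turns into flavonols, colourless compounds that absorb ultraviolet light, or which dihydroflavonol reductase and the late enzymes turn into anthocyanins, the red and purple pigments of stressed shoots. In Arabidopsis the early and flavonol genes are activated by the R2R3-MYB factors MYB11, MYB12 and MYB111, whereas the late genes depend on a complex of a MYB factor such as PAP1, a bHLH factor such as TT8 and the WD40 protein TTG1. Sugar, high light, cold and shortage of nitrogen or phosphate are known to raise anthocyanins, and LBD37, LBD38 and LBD39, induced by nitrate, are known to repress them.

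The sequences just before the transcript start were searched for short motifs, step by step. Of 26641 promoters, each the 250 bases before an annotated start in RefSeq's TAIR10.1 assembly, 6.59% hold a G-box (CACGTG), a site bound by bHLH and bZIP factors. A MYB element, searched as ACCTAAC or ACCAAAC or ACCTACC or ACCAACC on both strands, with overlapping matches counted separately, is in 13.75% of them. Among the 34 genes 9 had a G-box and 11 a MYB element. By step, a G-box was present in 3 of 5 early genes (TT4, CHIL and F3H), 0 of 4 flavonol genes and 3 of 9 late genes (DFR, UF3GT and SCPL10), and the MYB element in 1 of 5, 3 of 4 and 3 of 9. The core ACGT, which lies within every G-box, was in 17 of the 34 promoters against 44.21% of all promoters, and CHIL, DFR and SCPL10 held both a G-box and a MYB element, as did 0.98% of all promoters. The windows of F3H and SCPL10 overlap annotated exons of another gene. So do those of UGT78D1, AT4G14090, AT1G03940, GSTF12, GL3, MYBL2 and LBD37, which hold no G-box. A match describes these letters only, and binding was not measured.

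These 5 promoters are shown as examples of early, flavonol and late steps. Each runs 5′ to 3′ on the gene's own strand and ends at the base before the annotated start, with G-boxes and MYB elements in capitals. TT4 (chr5:4488226-4488475, plus strand) and CHIL (chr5:1563036-1563285, plus) are early genes, FLS1 (chr5:2803583-2803832, plus) is a flavonol gene, and DFR (chr5:17166033-17166282, minus) and UF3GT (chr5:21938397-21938646, minus) are late genes.
TT4: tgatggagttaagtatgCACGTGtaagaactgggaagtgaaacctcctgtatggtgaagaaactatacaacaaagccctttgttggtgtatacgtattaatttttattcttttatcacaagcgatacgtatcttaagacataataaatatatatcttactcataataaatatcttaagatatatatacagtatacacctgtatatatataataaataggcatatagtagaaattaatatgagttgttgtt
CHIL: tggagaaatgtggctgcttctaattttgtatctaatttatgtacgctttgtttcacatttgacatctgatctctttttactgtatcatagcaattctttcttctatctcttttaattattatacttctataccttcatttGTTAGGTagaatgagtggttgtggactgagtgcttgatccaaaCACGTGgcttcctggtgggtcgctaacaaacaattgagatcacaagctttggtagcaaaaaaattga
FLS1: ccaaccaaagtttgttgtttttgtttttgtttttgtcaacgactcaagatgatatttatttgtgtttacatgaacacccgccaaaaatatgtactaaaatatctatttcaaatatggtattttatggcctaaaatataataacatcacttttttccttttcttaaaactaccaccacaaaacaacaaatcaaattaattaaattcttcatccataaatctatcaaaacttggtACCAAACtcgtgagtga
DFR: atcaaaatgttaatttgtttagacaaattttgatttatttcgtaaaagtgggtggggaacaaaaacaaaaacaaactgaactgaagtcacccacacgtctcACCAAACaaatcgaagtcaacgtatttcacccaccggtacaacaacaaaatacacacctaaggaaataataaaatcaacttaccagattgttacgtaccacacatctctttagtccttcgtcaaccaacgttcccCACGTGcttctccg
UF3GT: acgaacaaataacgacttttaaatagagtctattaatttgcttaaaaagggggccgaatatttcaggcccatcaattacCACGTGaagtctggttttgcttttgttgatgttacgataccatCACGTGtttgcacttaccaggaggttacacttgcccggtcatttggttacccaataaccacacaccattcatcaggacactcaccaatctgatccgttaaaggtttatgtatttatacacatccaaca

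The promoters of TT4 and FLS1, at the head of the pathway and of its flavonol branch, carried a G-box 233 bases and a MYB element 17 bases before the start. DFR, the first late gene, had a G-box at 14 and a MYB element at 149 bases, and UF3GT had G-boxes at 171 and 128 bases and no MYB element. LDOX, which encodes the enzyme after DFR, had neither.

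**Figure D1:**
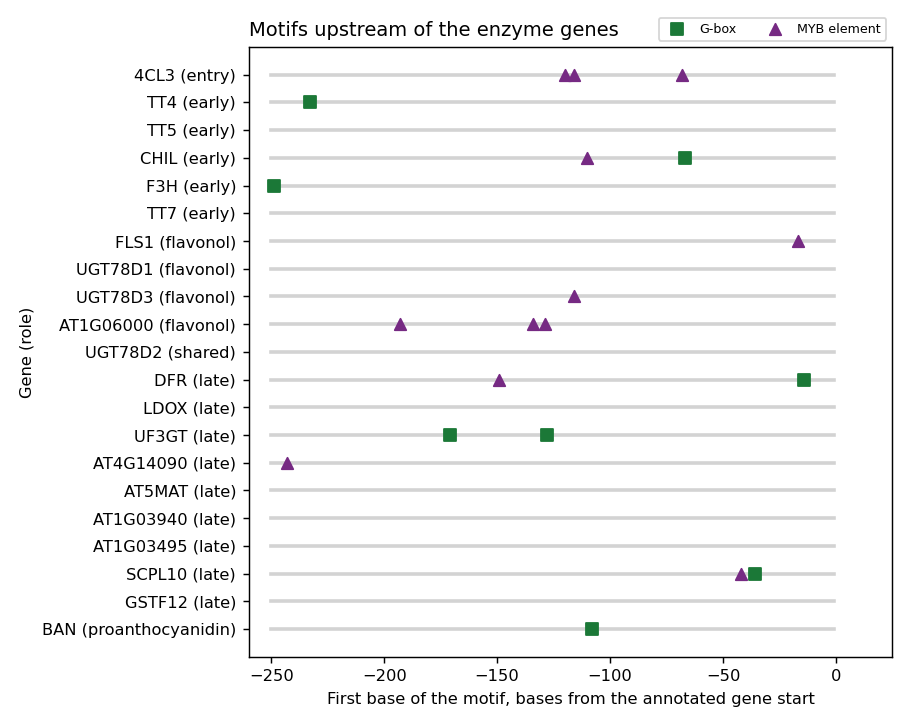
Positions of G-boxes and MYB elements in the 250 bases before the annotated start of each of the 21 enzyme and transport genes (x axis, first base of the motif in bases from the start; rows, genes by step; green squares, G-boxes; purple triangles, MYB elements; either strand). G-boxes are in 3 of 5 early and 3 of 9 late promoters and in 0 of 4 flavonol promoters. They are in 6.59% of all promoters, a share at which 0 of 4 is not unusual.

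The 6 libraries held 6706610 to 17092773 counts, and values below are TMM-scaled CPM (counts relative to the library's total) unless said otherwise. Wherever 3 values follow each other they belong to replicates 1 to 3 of a group. The transcript of TOR itself (AT1G50030) stood at 32.4, 27.8 and 32.7 CPM in BP12-2 and 34.3, 35.9 and 38.6 CPM in WT. All 3 were lower in BP12-2 by a small margin (log2 fold change -0.22 ± 0.10, edgeR adjusted p = 0.292). Rapamycin inhibits the kinase, whose activity was not measured here, so this level is no check on the knockdown. BP12-2 replicate 1 and WT replicate 3 stood apart in clock transcripts, with CCA1 and LHY summing to 147 and 129 CPM against 294 to 434 CPM in the other 4, and 5 evening genes to 285 and 313 against 121 to 133 CPM. Summed markers of roots (7 genes) ran from 1064 to 1268 CPM in BP12-2 and from 653 to 816 in WT, and those of green tissue (5 genes) from 24940 to 28720 and from 18560 to 23710 CPM, so neither sum overlapped between groups. PYK10 made up 89.7% of the root sum. The other 6 root genes, a split made after seeing the data, overlapped in sum at 108 to 125 CPM in BP12-2 and 65.3 to 118 CPM in WT. Gene by gene, all 3 BP12-2 libraries lay above all 3 WT libraries in 3 of the 7 root genes, PYK10 among them. That compares with 12.1% of all genes tested, and in 0 of the 7 they lay below. Seed coat markers (4 genes, TT12 at 0 in every library) summed to at most 1.81 CPM and the embryo markers CRU1 and OLEO1 to at most 1.30 CPM, and a trichome list of 3 genes ran from 12.0 to 16.3 CPM in BP12-2 and from 12.2 to 16.1 in WT. In whole seedlings, fewer cells of a type and less RNA per cell cannot be told apart. The part of the clock state or of the root and green tissue content in any result below was not tested beyond the values given. Column codes in the count table, L08 for BP12-2 and L07 for WT, cannot be told apart from the genotype.

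As a group the late, anthocyanin-making steps were the lowest in BP12-2 relative to WT. The flavonol steps differed least with all 6 libraries, but without WT replicate 2 the early steps did. The median log2 fold change, BP12-2 against WT, was -1.54 for the 9 late genes, -0.42 for the 5 early genes and 0.03 for the 3 flavonol genes with enough counts to test, against a median of 0.005 over all 19436 genes tested. Without WT replicate 2 the same medians were -0.70, -0.07 and 0.13, and the flavonol median ran from -0.16 to 0.18 as single libraries were left out. The early medians -0.42 and -0.07 are each the value of F3H. Its count is uncertain because most of its exon bases overlap another gene. No gene of the 34 passed the edgeR quasi-likelihood test at an adjusted p of 0.05, where 13 of 19436 genes (0.0669%) passed.

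Of the 34 genes 32 had enough counts to be tested, and 27 of these had a negative and 5 a positive log2 fold change, where 49.2% of all genes tested had a negative one. At an unadjusted p under 0.05 there were 13 of 32, all lower in BP12-2 (7 of 9 late genes), against 9.2% of all genes tested that were lower at this level. In 11 of 32 all 3 BP12-2 libraries lay below all 3 WT libraries, against 12.2% of all genes, and in 0 of 32 they lay above, against 12.1%. DESeq2 called PAP1, TT8 and LBD39, 3 of 31 tested, against 3.25% of all genes, and the exact test of edgeR called 7 of 32, against 4.33%. The 7 were DFR, LDOX, GSTF12, PAP1, TT8, GL3 and LBD39, all lower in BP12-2.

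**Figure D2:**
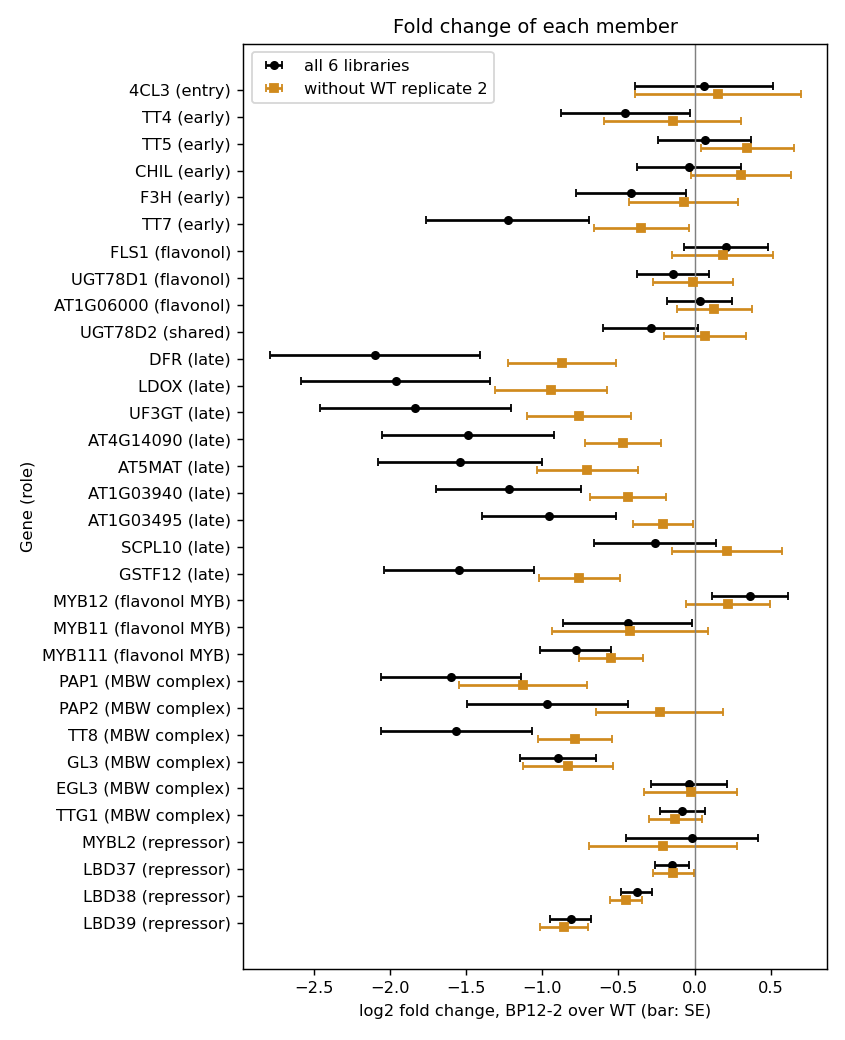
Log2 fold change (BP12-2 against WT, edgeR quasi-likelihood fit, x axis) of the 32 tested genes by step, with bars for the standard error (n = 3 per group) in black for all 6 libraries and in orange for the fit without WT replicate 2. The 9 late genes are all negative with all 6 libraries, and DFR moves from -2.10 to -0.87 without that library.

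Library by library, the steps shared some features and differed in others. The mean of the early genes on the scale of log2(CPM + 0.5) was 4.73, 5.29 and 5.28 in BP12-2 replicates 1 to 3 and 5.57, 6.07 and 4.49 in WT replicates 1 to 3. That of the flavonol genes was 6.4, 6.87 and 6.91 in BP12-2 and 7.01, 6.84 and 6.17 in WT, and that of the late genes 3.78, 3.85 and 4.63 in BP12-2 and 4.73, 6.49 and 4.69 in WT. WT replicate 2 stood highest for the early and the late genes but not for the flavonol genes, while BP12-2 replicate 1 and WT replicate 3, the pair with evening-like clock transcripts, were the lowest of their groups for all 3 steps, though for the late genes BP12-2 replicate 2 and WT replicate 1 were close to them.

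The late mean minus the early mean was -0.95, -1.44 and -0.65 on that scale in BP12-2 and -0.84, 0.42 and 0.20 in WT. The groups overlapped, with means of -1.01 ± 0.40 and -0.07 ± 0.67 (SD, n = 3). The sign of a single value depends on which genes are averaged, since CPM is not scaled by gene length. The early mean also includes F3H, whose count is uncertain because most of its exon bases overlap another gene. The flavonol mean minus the early mean was 1.67, 1.59 and 1.63 in BP12-2 and 1.45, 0.77 and 1.69 in WT, so that 5 of the 6 libraries kept a gap of 1.45 to 1.69 and WT replicate 2 did not. Late minus flavonol was -2.62, -3.02 and -2.28 in BP12-2 and -2.28, -0.35 and -1.49 in WT, where BP12-2 replicate 3 and WT replicate 1 were at the same level.

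Set against each other within a clock state, the late genes were lower in BP12-2 both times. BP12-2 replicate 1 minus WT replicate 3 was -0.91 for the late mean, 0.24 for the early and 0.23 for the flavonol mean. BP12-2 replicates 2 and 3 minus WT replicates 1 and 2 gave -1.37, -0.54 and -0.03, and all tested genes gave 0.008 and 0.003. The late difference in the second set rested largely on WT replicate 2. In a split made after seeing the data it was -0.49 against WT replicate 1 alone and -2.25 against WT replicate 2 alone. The early difference had opposite signs in the 2 states, and the first state holds 1 library per group and has no replicate check.

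**Figure D3:**
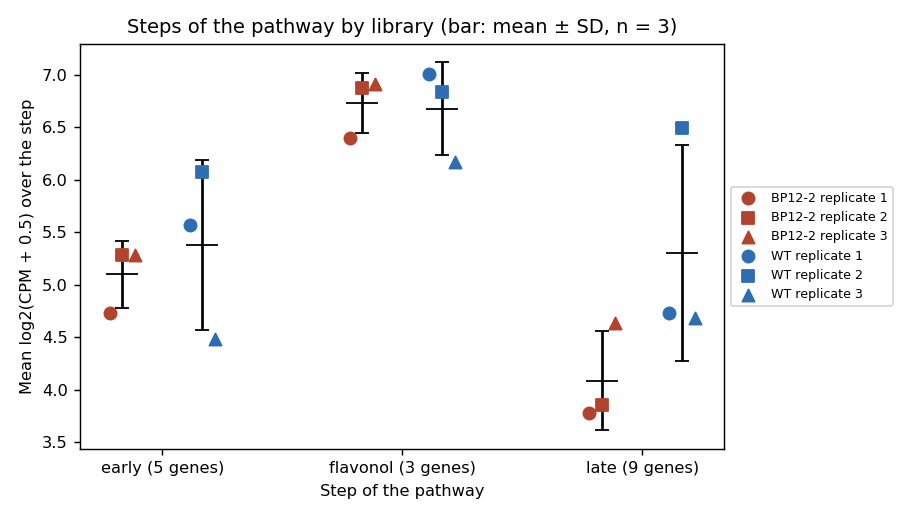
Mean log2(CPM + 0.5) of early, flavonol and late genes in each of the 6 libraries (circle, square and triangle, replicates 1 to 3; red, BP12-2; blue, WT; bars, mean and SD, n = 3). WT replicate 2 has the highest late mean, 6.49, and the WT libraries spread from 4.69 to 6.49.

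The spread among WT libraries was itself a feature of these genes. In 20 of 32 the highest WT value was at least 2-fold the lowest, against 8.99% of all genes tested, among them 5 of 5 early and 9 of 9 late genes. In BP12-2 the same held for 10 of 32 genes, against 7.85%. WT replicate 2 was the highest of the 6 libraries for 20 of 32 genes, against 17.6% of all genes. In that library the summed phosphate starvation list (10 genes) was also the highest, at 1589 CPM against 890 and 1023 CPM in the other WT libraries and 767 to 1162 CPM in BP12-2. The summed nitrate list (7 genes) stood at 3438 CPM there against 2934 and 2964 in the other WT libraries and 2485 to 2898 CPM in BP12-2. Whether either has a part in the late-step values was not tested.

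**Figure D4:**
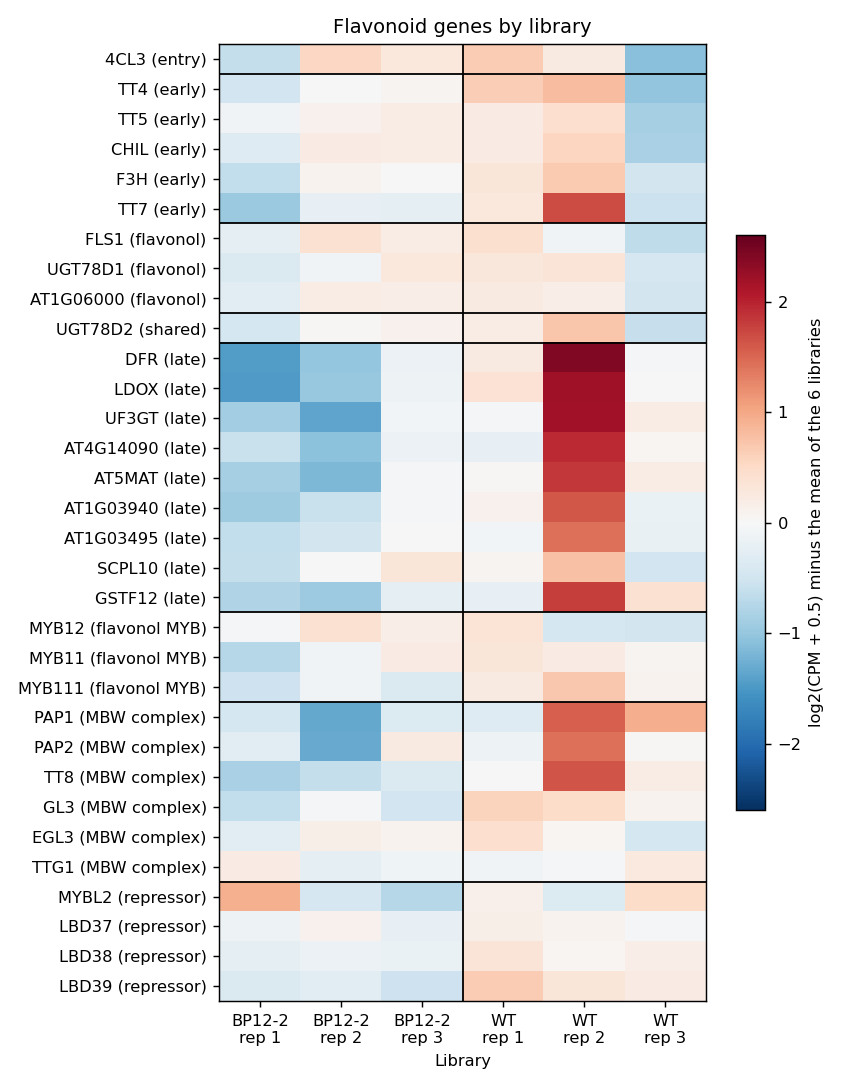
Log2(CPM + 0.5) of the 32 tested genes relative to the mean of the 6 libraries (columns, libraries; rows, genes by step; colour scale in log2 units). The late rows are highest in WT replicate 2, and the rows of FLS1, UGT78D1 and AT1G06000 are lowest in WT replicate 3 and BP12-2 replicate 1.

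Per kilobase of exon, chalcone synthase stood far above every other single gene of the 34. TT4 averaged 527 CPM per kb over the 6 libraries, with AT1G06000 at 107, UGT78D2 at 79.6 and UGT78D1 at 67.2 CPM per kb. The order of the late genes differed between groups. LDOX averaged 84.9 CPM per kb in WT, above the other late genes, but in BP12-2 it was at 21.5, beside AT1G03495 at 22.2 and AT4G14090 at 21.1. SCPL10 was the lowest late gene in both groups, at 1.94 CPM per kb in BP12-2 and 2.38 in WT. Among regulators LBD37 led at 53.8 CPM per kb, with MYBL2 at 38.4 and TTG1 at 38.3 close together, and the activators TT8 at 2.44 and MYB11 at 0.631 CPM per kb were lower. PAP1 and MYB12 stood at 8.28 and 9.17 CPM per kb in BP12-2 and at 25.5 and 7.24 in WT.

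4CL3 (AT1G65060) encodes the 4-coumarate:CoA ligase that feeds flavonoid synthesis. It was at 13.2, 30.1 and 25.1 CPM in BP12-2 and at 32.7, 24.2 and 9.40 CPM in WT, with the 2 lowest values in the evening-like pair and full overlap of the groups.

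TT4 (AT5G13930), chalcone synthase, the committing enzyme, was at 577, 832 and 863 CPM in BP12-2 and at 1270, 1441 and 402 CPM in WT. Its WT values bracket those of BP12-2, and the log2 fold change was -0.45 ± 0.42 (SE, n = 3 per group; edgeR adjusted p = 0.619). TT5 (AT3G55120), chalcone isomerase, was at 23.3, 26.8 and 28.3 CPM in BP12-2 and at 28.7, 33.4 and 13.3 CPM in WT. CHIL (AT5G05270), a chalcone isomerase-like protein that aids chalcone synthase, was at 17.6, 26.2 and 25.7 CPM in BP12-2 and at 25.9, 33.3 and 12.4 CPM in WT. In each of these 3 genes WT replicate 2 was the highest and WT replicate 3 the lowest of all libraries, and the fold changes of TT5, 0.07 ± 0.30, and of CHIL, -0.04 ± 0.34, were smaller than their errors.

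F3H (AT3G51240), flavanone 3-hydroxylase, was counted at only 2.69, 4.81 and 4.48 CPM in BP12-2 and at 5.67, 7.43 and 3.07 CPM in WT. Of its 1508 exon bases 1415 overlap the opposite-strand gene AT3G51238, which was at 4.59, 10.2 and 8.56 CPM in BP12-2 and at 13.5, 18.3 and 4.58 CPM in WT. As the labels do not say whether counting used strand, the reads of these genes may not be told apart and the level of F3H is uncertain.

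TT7 (AT5G07990), flavonoid 3′-hydroxylase, which adds the hydroxyl group that separates quercetin and cyanidin from kaempferol and pelargonidin, was at 16.2, 27.7 and 26.7 CPM in BP12-2 and at 38.9, 104 and 21.7 CPM in WT. WT replicate 2 was 2.68-fold above the next WT library, a jump like that of the late genes, while WT replicate 3 lay within the BP12-2 range. The log2 fold change was -1.23 ± 0.53 and -0.35 without WT replicate 2.

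In the flavonol branch the 3 tested genes differed by less than their errors. FLS1 (AT5G08640), flavonol synthase, was at 45.2, 70.6 and 60.7 CPM in BP12-2 and at 71.0, 49.6 and 33.3 CPM in WT, a log2 fold change of 0.21 ± 0.28 (SE; edgeR adjusted p = 0.739). WT replicate 2, the library highest in early and late genes, had 0.70 times the FLS1 level of the higher other WT library. UGT78D1 (AT1G30530), a flavonol 3-O-rhamnosyltransferase, was at 96.7, 118 and 151 CPM in BP12-2 and at 153, 158 and 92.5 CPM in WT.

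AT1G06000, annotated as a member of the UDP-glycosyltransferase superfamily and grouped here with the flavonol steps, was at 135, 191 and 187 CPM in BP12-2 and at 195, 189 and 119 CPM in WT. All 3 genes overlapped between groups, with log2 fold changes of -0.14 ± 0.24 for UGT78D1 and 0.03 ± 0.21 for AT1G06000. UGT78D3 (AT5G17030), a flavonol arabinosyltransferase, had 2, 1 and 1 reads in BP12-2 and 3, 8 and 7 reads in WT. It was under the count filter, and its groups did not overlap. Without that filter its log2 fold change was -1.90 ± 0.64 (edgeR adjusted p = 0.201), a value that rests on few reads. UGT78D2 (AT5G17050), the 3-O-glucosyltransferase shared with anthocyanins, was at 89.3, 127 and 133 CPM in BP12-2 and at 141, 204 and 80.7 CPM in WT, a log2 fold change of -0.29 ± 0.31, with WT replicate 2 highest and WT replicate 3 lowest as in TT4, TT5 and CHIL.

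Dihydroflavonol reductase and leucoanthocyanidin dioxygenase, the enzymes that open the anthocyanin branch, gave the largest differences among the 32 tested genes with all 6 libraries. DFR (AT5G42800, chr5:17164093-17166032) was at 9.38, 13.1 and 23.8 CPM in BP12-2 and at 31.7, 144 and 26.1 CPM in WT, and LDOX (AT4G22880, chr4:12004726-12006209) was at 18.1, 25.7 and 46.7 CPM in BP12-2 and at 67.0, 239 and 50.8 CPM in WT. No BP12-2 value of either gene reached the lowest WT value, but BP12-2 replicate 3 came close to WT replicate 3, and WT replicate 2 was 4.55-fold for DFR and 3.56-fold for LDOX above the next WT library. Mean levels in WT were 4.36 times those in BP12-2 for DFR and 3.94 times for LDOX, and 1.88 and 1.95 times with WT replicates 1 and 3 alone. The log2 fold changes of -2.10 ± 0.69 and -1.96 ± 0.62 (SE, n = 3 per group) missed the threshold of the edgeR quasi-likelihood test (adjusted p = 0.180 and 0.168). Without WT replicate 2 they were -0.87 ± 0.36 and -0.94 ± 0.37, and the largest was then that of PAP1, at -1.13 ± 0.42.

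Genes of the enzymes that decorate anthocyanins were likewise highest in WT replicate 2. UF3GT (AT5G54060), which adds xylose to the glucose of anthocyanins, was at 17.1, 12.3 and 30.7 CPM in BP12-2 and at 31.9, 150 and 37.3 CPM in WT. AT5MAT (AT3G29590), an anthocyanin malonyltransferase, was at 6.69, 5.27 and 12.2 CPM in BP12-2 and at 12.8, 45.6 and 14.4 CPM in WT. In both genes the groups did not overlap, by a narrow margin, and WT replicate 2 was 4.0-fold and 3.17-fold above the next WT library.

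AT4G14090, annotated with anthocyanin 5-O-glucosyltransferase activity, was at 34.2, 24.2 and 45.8 CPM in BP12-2 and at 43.9, 198 and 53.1 CPM in WT, where BP12-2 replicate 3 exceeded WT replicate 1. Its exons share 230 bases with AT4G14100 on the genome, so part of its count is uncertain. The log2 fold changes were -1.83 ± 0.63 for UF3GT, -1.54 ± 0.54 for AT5MAT and -1.49 ± 0.57 for AT4G14090, and none passed (edgeR adjusted p = 0.193, 0.200 and 0.226). Without WT replicate 2 they were -0.76, -0.70 and -0.47.

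AT1G03940 and AT1G03495, annotated as HXXXD-type acyltransferases, were grouped here with the late steps. Of their 50-base words 39.9% and 40.8% occur more than once in the nuclear genome, so some reads may have been misplaced or dropped. AT1G03940 was at 20.9, 26.6 and 38.3 CPM in BP12-2 and at 43.3, 123 and 35.1 CPM in WT, and AT1G03495 was at 23.8, 26.6 and 37.0 CPM in BP12-2 and at 35.4, 102 and 32.5 CPM in WT. In both, BP12-2 replicate 3 lay above WT replicate 3, and the log2 fold changes were -1.22 ± 0.48 and -0.96 ± 0.44, or -0.44 and -0.21 without WT replicate 2. SCPL10 (AT2G23000), a serine carboxypeptidase-like acyltransferase, was at 2.59, 4.21 and 5.41 CPM in BP12-2 and at 4.51, 7.58 and 2.89 CPM in WT, the late gene with the smallest difference, -0.26 ± 0.40 on the log2 scale, which turned to 0.22 without WT replicate 2.

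GSTF12 (AT5G17220), a glutathione transferase that carries anthocyanins to the vacuole, was at 12.9, 11.6 and 19.1 CPM in BP12-2 and at 19.5, 79.5 and 29.9 CPM in WT. The groups were apart by a narrow margin between BP12-2 replicate 3 and WT replicate 1, and WT averaged 2.96 times BP12-2, or 1.70 times without WT replicate 2. The log2 fold change was -1.55 ± 0.49 (edgeR adjusted p = 0.171), or -0.76 without WT replicate 2, and 108 of its exon bases overlap AT5G17230. BAN (AT1G61720), the anthocyanidin reductase of seed coat tannins, had 0 reads in 5 libraries and 2 reads in WT replicate 2, beside seed coat markers that were also at or near 0.

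**Figure D5:**
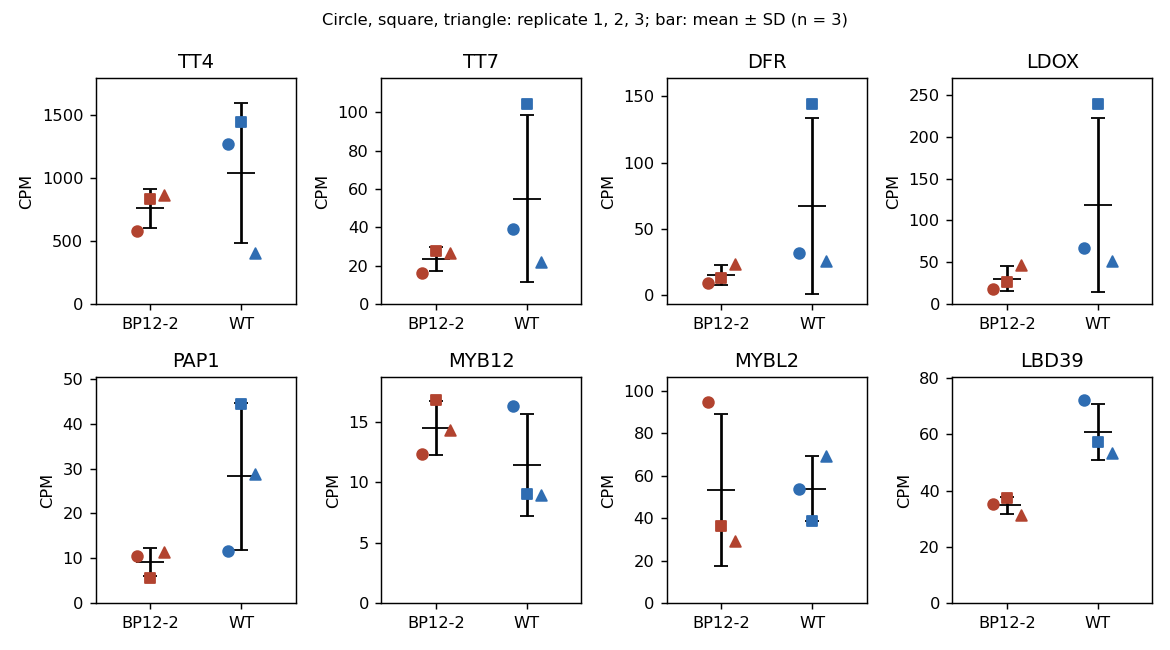
CPM of TT4, TT7, DFR, LDOX, PAP1, MYB12, MYBL2 and LBD39 in the 3 BP12-2 (red) and 3 WT (blue) libraries (circle, square and triangle, replicates 1 to 3; bars, mean and SD, n = 3; the y axes start at or just below 0 and differ between panels). WT replicate 2 lies far above the other libraries for TT7, DFR and LDOX and between the other WT libraries for LBD39.

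The MYB activators of the early and flavonol genes did not move as a group. MYB12 (AT2G47460) was at 12.4, 16.9 and 14.3 CPM in BP12-2 and at 16.4, 9.07 and 8.97 CPM in WT, a log2 fold change of 0.36 ± 0.25. MYB111 (AT5G49330) was at 3.39, 4.81 and 3.90 CPM in BP12-2 and at 6.18, 8.77 and 5.54 CPM in WT, without overlap, a log2 fold change of -0.78 ± 0.23 that missed the threshold (edgeR adjusted p = 0.151). MYB11 (AT3G62610) stayed near or below 1 CPM, at 0.30, 0.75 and 1.05 in BP12-2 and 1.16, 1.04 and 0.90 in WT, too low to read a difference from. MYB12 was thus low in WT replicate 2, the library with the highest TT4, and MYB111 was highest there.

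In the complex that drives the late genes, PAP1, TT8 and GL3 lay lower in every BP12-2 library than in any WT library, while PAP2, EGL3 and TTG1 overlapped between groups. PAP1 (AT1G56650, chr1:21233555-21235292), the MYB factor whose excess turns plants purple, was at 10.6, 5.57 and 11.4 CPM in BP12-2 and at 11.6, 44.4 and 28.7 CPM in WT. BP12-2 replicate 3 and WT replicate 1 nearly met, and WT replicate 3, low for early genes, was high here. The mean in WT was 3.08 times that in BP12-2 and 2.20 times without WT replicate 2, and the log2 fold change was -1.60 ± 0.46 (edgeR quasi-likelihood adjusted p = 0.144, DESeq2 adjusted p = 0.00969). Its close relative PAP2 (AT1G66390) was at 3.89, 1.66 and 5.70 CPM in BP12-2 and at 4.38, 13.9 and 4.94 CPM in WT, with overlap, and its log2 fold change of -0.97 ± 0.53 was -0.23 without WT replicate 2. Of its 50-base words 4.44% occur more than once in the nuclear genome.

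TT8 (AT4G09820), a bHLH partner, was at 2.00, 2.41 and 2.97 CPM in BP12-2 and at 3.99, 13.4 and 4.58 CPM in WT, with WT 2.98 times BP12-2 and 1.74 times without WT replicate 2. GL3 (AT5G41315), a bHLH factor of trichomes and anthocyanins, was at 1.90, 3.16 and 2.15 CPM in BP12-2 and at 5.02, 4.68 and 3.49 CPM in WT. Neither gene overlapped between groups, and the log2 fold changes were -1.56 ± 0.50 and -0.90 ± 0.25 (edgeR quasi-likelihood adjusted p = 0.168 and 0.140). The difference of GL3 did not rest on WT replicate 2, since it was -0.83 without that library, against -0.79 for TT8, and WT replicate 1 was the highest.

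EGL3 (AT1G63650), the third bHLH of this family, was at 7.58, 10.4 and 10.0 CPM in BP12-2 and at 12.9, 9.74 and 6.63 CPM in WT, a log2 fold change of -0.04 ± 0.25. TTG1 (AT5G24520), the WD40 scaffold, was at 82.9, 61.1 and 66.3 CPM in BP12-2 and at 67.0, 69.3 and 85.7 CPM in WT, a log2 fold change of -0.08 ± 0.15, and was highest in the evening-like library of each group.

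The repressors divided into MYBL2, which varied widely within both groups, and the LBD genes, of which LBD38 and LBD39 but not LBD37 lay below WT in every BP12-2 library. No repressor passed the edgeR quasi-likelihood test. MYBL2 (AT1G71030), a small MYB protein that inhibits the complex, was at 94.6, 36.1 and 29.2 CPM in BP12-2 and at 53.7, 38.6 and 69.3 CPM in WT, so it too was highest in the evening-like library of each group, and its log2 fold change was -0.02 ± 0.44. That value rested on BP12-2 replicate 1, since without it the log2 fold change was -0.74 ± 0.25 (edgeR adjusted p = 0.185), and in the 4 libraries outside the evening-like pair it was -0.50 ± 0.18. LBD39 (AT4G37540, chr4:17639393-17640925) was at 35.3, 37.5 and 31.3 CPM in BP12-2 and at 72.3, 57.2 and 53.4 CPM in WT. The highest BP12-2 value, 37.5, lay well below the lowest WT value, 53.4, and the replicates of each group were close together.

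The mean of LBD39 in WT, 61.0 ± 9.96 CPM, was 1.76 times the 34.7 ± 3.15 CPM of BP12-2 (SD, n = 3), and 1.81 times without WT replicate 2. The log2 fold change of -0.81 ± 0.14 had the smallest p of the 34 genes, but missed the threshold in the edgeR quasi-likelihood test (adjusted p = 0.0793), while DESeq2 gave an adjusted p of 4.95e-04 and the exact test of edgeR 4.16e-04. A term for the evening-like pair of libraries in the edgeR quasi-likelihood test gave an adjusted p of 0.0215. That pair was picked from clock transcripts of these same libraries. With the term 1 of 32 members passed, against 992 of 19436 genes tested.

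LBD38 (AT3G49940) was at 41.9, 44.4 and 43.9 CPM in BP12-2 and at 62.7, 51.2 and 55.8 CPM in WT, without overlap, a log2 fold change of -0.38 ± 0.10 (edgeR adjusted p = 0.127). LBD37 (AT5G67420) was at 127, 148 and 119 CPM in BP12-2 and at 154, 147 and 136 CPM in WT, with overlap and a log2 fold change of -0.15 ± 0.11. Where the activators PAP1 and TT8 spread widely over the WT libraries, the LBD genes spread little, and the summed nitrate list ran from 2485 to 2898 CPM in BP12-2 and from 2934 to 3438 CPM in WT. That gap came from NIA2, a nitrate reductase gene and 1 of the 7, which made up 63.5% of the sum. Without NIA2, a choice made after seeing the data, the sums overlapped, at 972 to 1080 CPM in BP12-2 and 997 to 1241 CPM in WT. The part of nitrate in the LBD values was not tested.

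Genes that supply the pathway or act beside it showed no common direction. Of 37 further genes (phenylpropanoid enzymes, flavonol and tannin genes, transporters and light or trichome regulators) 36 were in the table and 29 were tested. Of the 29, 14 had a negative and 15 a positive log2 fold change, with a median of 0.02. The edgeR quasi-likelihood test called 0, against 0.0669% of all genes tested. At an unadjusted p under 0.05 it had 2 lower and 2 higher, against 1788 lower and 1756 higher of 19436 genes. DESeq2 called 0 of 28, against 3.25% of all genes. The exact test of edgeR called 1 of 29, FLS3, which was higher, against 4.33%.

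The most abundant of them differed by little. PAL1, phenylalanine ammonia-lyase, the gateway from phenylalanine, was at 668, 805 and 810 CPM in BP12-2 and at 833, 856 and 523 CPM in WT, and its paralog PAL2 at 517, 475 and 507 CPM in BP12-2 and at 484, 529 and 422 CPM in WT. C4H, cinnamate 4-hydroxylase, was at 519, 680 and 700 CPM in BP12-2 and at 831, 904 and 585 CPM in WT, and 4CL1, a 4-coumarate:CoA ligase, at 280, 314 and 353 CPM in BP12-2 and at 313, 310 and 243 CPM in WT. The log2 fold changes of the 4 genes ran from -0.29 ± 0.19 for C4H to 0.13 ± 0.14 for 4CL1.

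The largest differences in that list pointed both ways. PAL4, a further phenylalanine ammonia-lyase, was at 58.4, 96.7 and 85.0 CPM in BP12-2 and at 67.0, 37.5 and 30.4 CPM in WT, a log2 fold change of 0.84 ± 0.31. FLS3, a homolog of flavonol synthase, was at 22.7, 23.8 and 21.8 CPM in BP12-2 and at 18.2, 15.8 and 14.1 CPM in WT, all 3 above WT, with 0.51 ± 0.12 (edgeR quasi-likelihood adjusted p = 0.107). RUP2, a repressor of ultraviolet-B signalling, was at 31.8, 54.8 and 47.8 CPM in BP12-2 and at 41.0, 34.7 and 18.6 CPM in WT, with 0.52 ± 0.30. TTG2, a WRKY factor of trichomes and seed coat, was at 4.89, 4.51 and 4.83 CPM in BP12-2 and at 5.80, 10.6 and 5.12 CPM in WT. All 3 were below WT, by a narrow margin, with -0.59 ± 0.29, and like the late genes TTG2 was highest in WT replicate 2.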

How the data were processed

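The authors deposited raw whole-number counts for each gene, made from paired-end reads. Per the labels' design text and the submitters' processing notes, reads were aligned to TAIR9 with Bowtie, counted with HTSeq and tested with edgeR. Tool versions and strand use are not stated there. The table has 32313 genes, 8089 at 0 in every library. Counts of every 2 libraries differed beyond sampling noise (chi-square per degree of freedom at least 10.9).

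Genes were filtered with filterByExpr (count minimum 10, total minimum 15), leaving 19436, and scaled by TMM (factors 0.972 to 1.02). The test was the quasi-likelihood F test of edgeR 4.0.16 (R 4.3.3), 2-sided, genotype as the only term, Benjamini-Hochberg adjusted over all genes tested, threshold 0.05. Standard errors are log2 fold changes over the root of F. The test was tested on simulated data first. Alternatives were RLE factors, library totals, no filter, DESeq2 1.42.0, the exact test, limma 3.58.1 voom, a replicate block, a term for BP12-2 replicate 1 and WT replicate 3, the other 4 libraries, and each library left out.

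Gene names, exon lengths and coordinates come from RefSeq's TAIR10.1 annotation, which is not the authors' build, and no coordinates were converted. The members, lists, steps and alternatives were chosen with earlier results of these data known. Text names all 34 members and, of the further pathway list, genes past the threshold, the 4 with the highest mean CPM and the 4 with the largest absolute log2 fold change at 5 CPM or more.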

Additional observations from a re-analysis of the deposited data

How the results depend on the processing

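The count of the 34 genes past the threshold was 0 by the edgeR quasi-likelihood test and in each fit without a library (0 to 0), 3 by DESeq2, 7 by the exact test, 1 with the term for BP12-2 replicate 1 and WT replicate 3, and 1 at an adjusted p of 0.1. In the further pathway list it was 0, also without any library (0 to 0), but 1 by the exact test and 3 (PAL4, RUP2 and FLS3, all higher) with that term. Over all genes tested it was 13, against 841 by the exact test, 622 by DESeq2, 992 with the term, 38 in the other 4 libraries, 56 without the count filter, 22 by voom and 0 with the replicate block. Leaving out 1 library moved the late median log2 fold change between -1.84 and -0.70, the early median between -0.73 and -0.07, the flavonol median between -0.16 and 0.18, and the late minus early gap between -1.55 and -0.63. The late and early values nearest 0 came without WT replicate 2. Both ends of the early range are values of F3H, whose count is uncertain. Same-numbered libraries did not deviate together (correlations -0.33, 0.07 and -0.33 of residuals). Residuals taken within groups of 3 are bound to each other, so these values cannot decide whether the numbers mark pairs. With the replicate block 0 of the 34 genes passed and CHIL was at 0.055. Small fold changes turned sign, in the other 4 libraries 4CL3 -0.044, TT5 -0.18, AT1G06000 -0.018, PAL1 -0.063 and PAL2 -0.044, by voom CHIL 0.091 and EGL3 0.053, with the term CHIL 0.016. Leaving out 1 library gave 4CL3 -0.32 to 0.44, TT5 -0.25 to 0.35, CHIL -0.36 to 0.31, FLS1 -0.034 to 0.50, UGT78D1 -0.35 to 0.002, AT1G06000 -0.16 to 0.18, UGT78D2 -0.57 to 0.069, SCPL10 -0.58 to 0.22, EGL3 -0.27 to 0.19, TTG1 -0.22 to 0.042, MYBL2 -0.74 to 0.29, PAL1 -0.15 to 0.17 and PAL2 -0.019 to 0.14. The cause was not tested. Of the named genes' values, 336 of 360 under other alternatives and 215 of 240 without a library kept direction and side of the threshold. Genes under 3 CPM, such as MYB11, rest on few reads.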
